A study of Mus musculus with 16 samples.

Results

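High endothelial venules (HEVs) are the plump-walled venules of lymph nodes and of lymphoid aggregates in other tissues, through which lymphocytes leave the blood. They carry sulfated, fucosylated sugars on mucin scaffolds, and lymphocytes catch on these sugars by a selectin and slow down. Lymphotoxin from lymphocytes and dendritic cells, acting through its receptor on the vessel, keeps these venules in their specialised state. Of the 53465 genes in the table, 7 were taken by symbol for their part in this gate. They were the scaffolds Glycam1 and Madcam1, the sugar-building enzymes Chst4, Chst2, Fut7 and Gcnt1, and Enpp2, a secreted enzyme that makes lysophosphatidic acid beside the venule. Each of the 7 had 1 entry in the table and each passed edgeR's filter on low counts, with 18251 genes in all.

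The tumors came from 16 female C57BL/6 mice aged 6 to 8 weeks, each given MC38 cells, a colon adenocarcinoma line of the same strain, under the skin of the right flank. The 8 IgG control mice received 200 µg of control antibody on days 16 and 20, and 8 others received the same dose of aPD-1, an antibody that blocks the checkpoint receptor PD-1 on T cells. Tumors were taken on day 21, and RNA from sections of the frozen part of each tumor was sequenced after poly(A) selection. The aPD-1 tumors were then divided by the study, from staining for CD8 T cells, into 6 non-responders and 2 responders, so that treatment was assigned at random and response was not. Within these libraries Cd8a, the CD8 alpha chain, lay at 59.7 and 59.2 CPM (counts scaled to library size) in the responders, between 4.06 and 9.97 CPM in the non-responders and between 1.94 and 11.5 CPM in the controls. Of 5 genes of colon epithelium, Cdx2 was at 0 in all tumors but 1 control with 1 count, and Vil1 and Krt20 reached at most 0.283 and 0.7095 CPM. Cdh1 lay between 3.75 and 9.79 CPM in all tumors, and Epcam at 10.6 and 5.32 CPM in the responders against at most 0.942 CPM elsewhere, a called difference (log2 fold change 4.30 against non-responders). All tumors came from 1 cell line, and a sample held tumor cells and whatever host tissue lay in the sections.

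Total counts per tumor ranged from 26603449 to 39948866. The responders stood apart from the other libraries in the genes of several cell types that are not tumor cells, with the summed B cell list at 1190 CPM in responder replicate 15 and 327 CPM in replicate 16 against at most 7.71 CPM in the other 14 tumors. Each call on the 7 genes in responders is therefore given with both tumors and, where it changed, without one of them. The gene lists against non-responders are given without replicate 15 where their calls changed.

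The promoter sequences of the 3 genes with the lowest levels outside the responders are shown because these genes had the largest fold changes. Each is the 250 bases before the RefSeq start site, 5′ to 3′ on the strand of the gene, in build GRCm38.p6. Capitals mark matches to GGGANNNNCC, the letters that NF-kappaB, the factor downstream of lymphotoxin, is known to bind. The Glycam1 window is chr15:103565082-103565331 on the minus strand, the Madcam1 window chr10:79664309-79664558 on the plus strand and the Chst4 window chr8:110039335-110039584 on the minus strand.
Glycam1: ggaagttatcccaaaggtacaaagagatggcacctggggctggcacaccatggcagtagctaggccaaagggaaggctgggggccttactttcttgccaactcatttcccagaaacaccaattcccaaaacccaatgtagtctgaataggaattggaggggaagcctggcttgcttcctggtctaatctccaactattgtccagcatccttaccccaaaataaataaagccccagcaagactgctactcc
Madcam1: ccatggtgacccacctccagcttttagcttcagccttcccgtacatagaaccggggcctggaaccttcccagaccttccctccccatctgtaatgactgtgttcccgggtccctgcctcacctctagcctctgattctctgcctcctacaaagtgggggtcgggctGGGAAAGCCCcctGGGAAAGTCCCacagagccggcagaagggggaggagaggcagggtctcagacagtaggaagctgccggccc
Chst4: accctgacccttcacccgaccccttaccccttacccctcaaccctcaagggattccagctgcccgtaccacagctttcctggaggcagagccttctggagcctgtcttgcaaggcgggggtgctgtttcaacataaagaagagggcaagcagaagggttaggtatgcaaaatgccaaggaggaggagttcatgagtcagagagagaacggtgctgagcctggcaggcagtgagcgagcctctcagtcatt
Madcam1 held 3 matches on both strands together, at 84, 71 and 70 bases before the start, the last of which lies on the reverse strand and overlaps the one before it. Of 32851 mouse promoters of this length, 17.6% held at least 1 such match. Glycam1 and Chst4 held none, and neither gene had the TATA box letters TATAAA, found in 12.4% of promoters, or the ETS letters AGGAAGT, found in 7.69%. Promoters of 6 of the 7 genes were in the RefSeq table, all but that of Enpp2. The other 3 of these genes had no NF-kappaB letters except Chst2, with 1 match at 104 bases before its start.

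Glycam1, Madcam1, Chst4 and Fut7 were higher in the 2 responders than in every other tumor, Enpp2 was also above every other tumor but did not pass the test, and Chst2 and Gcnt1 lay within or near the range of the others. A call required a Benjamini-Hochberg adjusted p under 0.05, taken over all 18251 genes from the quasi-likelihood test of edgeR, together with a log2 fold change larger than 1 in size. By this rule 4 of the 7 genes were called higher in responders than in non-responders, against 12.5% of all genes tested, and 0 were called lower, against 0.663%. The same 4 of 7 genes were called higher in responders than in IgG controls, against 14.3% of all genes, and 0 lower, against 0.641%. Of these 4, Madcam1 and Chst4 reached 10 counts only in the 2 responders. They passed the filter on low counts through the group in which they were high. Both responders lay above every tumor of the other group for 5 of 7 genes in each comparison, against 21.5% of all genes for non-responders and 19.3% for controls. These comparisons share the responder tumors and are not independent of each other. In bulk RNA, more cells of a type and more RNA per cell cannot be told apart.

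**Figure D1:**
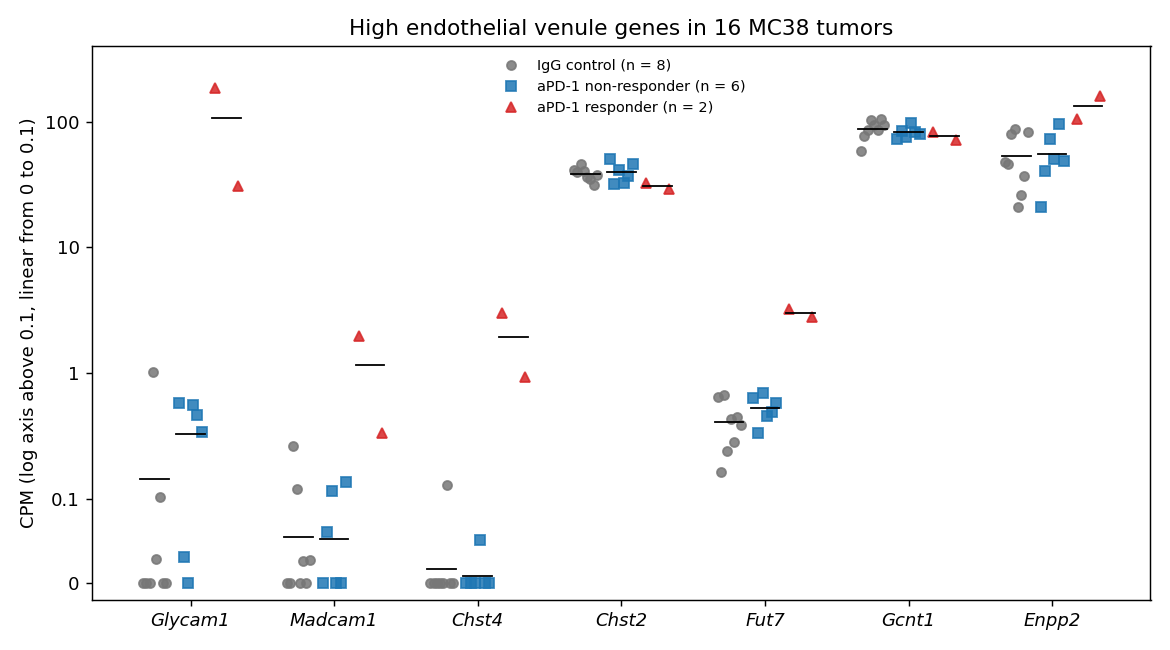
Level of each of the 7 genes in each tumor in CPM, on an axis that is logarithmic above 0.1 and linear below, with 1 point per tumor and a line at the mean of each group. The responders sit far above the other 14 tumors for Glycam1 (184 and 30.6 CPM) and inside or just below the range of the non-responders for Chst2 and Gcnt1.

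Glycam1 encodes a secreted mucin that carries selectin ligands in HEVs, and it is also made by the lactating mammary gland (chr15:103562759-103565081, GRCm38, minus strand). It measured 184 CPM in responder replicate 15 and 30.6 CPM in replicate 16, from 6214 and 1087 counts. In the 8 IgG controls the lowest value was 0, the median 0 and the highest 1.02 CPM. In the 6 non-responders the lowest was 0, the median 0.401 and the highest 0.580 CPM. The lower of the responders was thus far above the highest of the other 14 tumors, 6 of which had 0 counts. The log2 fold change was 8.32 ± 1.04 (SE) against non-responders (adjusted p = 2.6e-05, edgeR) and 9.49 ± 0.99 against controls (adjusted p = 2.6e-06). Without replicate 15 the former was 6.45, and without control replicate 4 the latter was 12.08, with Glycam1 called in both. In summed counts, the responders had 313 times the level of the non-responders (95% exact interval 248 to 402, counting error only).

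Madcam1, the mucosal addressin, binds the lymphocyte integrin of Itga4 and Itgb7 and can carry selectin ligands (chr10:79664559-79668537, plus strand). Its level was low in each group, at 1.98 CPM in responder replicate 15 and 0.337 CPM in replicate 16, from 67 and 12 counts. The controls ranged from 0 through a median of 0.0130 to 0.262 CPM, and the non-responders from 0 through a median of 0.0304 to 0.136 CPM. Replicate 16 was therefore only a little above the highest control. Responders exceeded non-responders by 4.45 ± 1.14 on the log2 scale (adjusted p = 0.010, edgeR) and controls by 4.41 ± 1.04 (adjusted p = 0.0049). This call depended on replicate 15: without it the log2 fold change against non-responders was 2.598 (adjusted p = 0.476) and that against controls 2.57 (adjusted p = 0.425).

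Chst4 encodes the sulfotransferase that is largely restricted to HEVs and that adds the sulfate recognised by selectin (chr8:110029153-110039740, minus strand; the promoter window above lies inside this longer gene model). It measured 2.99 CPM in responder replicate 15 and 0.928 CPM in replicate 16, from 101 and 33 counts. All controls were at 0 except replicate 6 with 0.130 CPM, and all non-responders were at 0 except replicate 12 with 0.0506 CPM. Detection of Chst4 was thus nearly limited to the responders at this depth, where 0 counts in a tumor allow up to 3. The fitted log2 fold change was 7.23 ± 1.07 against non-responders (adjusted p = 1.2e-04, edgeR) and 6.49 ± 0.91 against controls (adjusted p = 5.1e-05). With 134 summed counts in responders against 2 in non-responders, the ratio of levels was 201 with a 95% exact interval from 54.6 to 1678, so its size is poorly determined. Without responder replicate 15 the log2 fold change was 6.09. Without non-responder replicate 12, or against controls without control replicate 6, the group compared was wholly at 0 and the fitted value of 9.05 then depended on the prior count and is no bound. Chst4 was called in each of these fits. Under DESeq2 Chst4 was no longer called, at a log2 fold change of 7.56 (adjusted p = 0.126) against non-responders and 6.84 (adjusted p = 0.143) against controls.

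Fut7 encodes the fucosyltransferase that completes the sugar bound by selectins, in HEVs and in leukocytes alike (chr2:25423267-25426374, plus strand). The responders measured 3.22 and 2.78 CPM, from 109 and 99 counts. The controls ranged from 0.164 to 0.674 CPM with a median of 0.409, and the non-responders from 0.334 to 0.691 CPM with a median of 0.532. No other tumor came near the responders, and the responders were close to each other. This was a log2 fold change of 2.49 ± 0.40 against non-responders (adjusted p = 2.2e-04, edgeR) and 2.88 ± 0.37 against controls (adjusted p = 1.9e-05).

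Chst2, a sulfotransferase of the same kind as Chst4 that many cell types express (chr9:95399292-95406722, minus strand), did not share this pattern. It measured 32.3 and 29.0 CPM in the responders, 31.3 to 45.7 CPM in the controls (median 38.7) and 31.9 to 50.05 CPM in the non-responders (median 39.2). Replicate 16 was below every other tumor and replicate 15 below all but 2 of them. On the log2 scale the difference was -0.38 ± 0.17 against non-responders (adjusted p = 0.148, edgeR) and -0.32 ± 0.17 against controls (adjusted p = 0.192).

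Gcnt1 encodes the branching enzyme on whose product the selectin sugars are built on mucins (chr19:17326141-17372844, minus strand). It measured 82.9 and 71.0 CPM in the responders, 58.5 to 105 CPM in the controls (median 89.9) and 72.9 to 97.4 CPM in the non-responders (median 81.7). These ranges overlapped. The difference on the log2 scale was -0.09 ± 0.18 against non-responders (adjusted p = 0.78, edgeR) and -0.19 ± 0.17 against controls (adjusted p = 0.478).

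Enpp2, or autotaxin, makes the lipid signal lysophosphatidic acid, which helps lymphocytes cross the HEV wall (chr15:54838901-54952892, minus strand). It is also made by fat cells and other tissues. It measured 105 and 161 CPM in the responders, 21.1 to 87.6 CPM in the controls (median 47.0) and 21.0 to 96.6 CPM in the non-responders (median 49.7). Both responders were above each other tumor, yet the spread inside the other groups was about as wide as the step to the responders. In the fit, the log2 fold change was 1.27 ± 0.50 against non-responders (adjusted p = 0.0872, edgeR) and 1.31 ± 0.47 against controls (adjusted p = 0.0562). The call was gained without non-responder replicate 13, the highest of its group, at 1.51 (adjusted p = 0.0398), and against controls under DESeq2 at 1.303 (adjusted p = 0.0384). Against controls it was also gained without control replicate 3, 4 or 8 or non-responder replicate 9 or 13, with adjusted p from 0.0366 to 0.0468 (edgeR). Without responder replicate 16 the log2 fold change was 0.88 against non-responders (adjusted p = 0.434) and 0.91 against controls (adjusted p = 0.373).

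**Figure D2:**
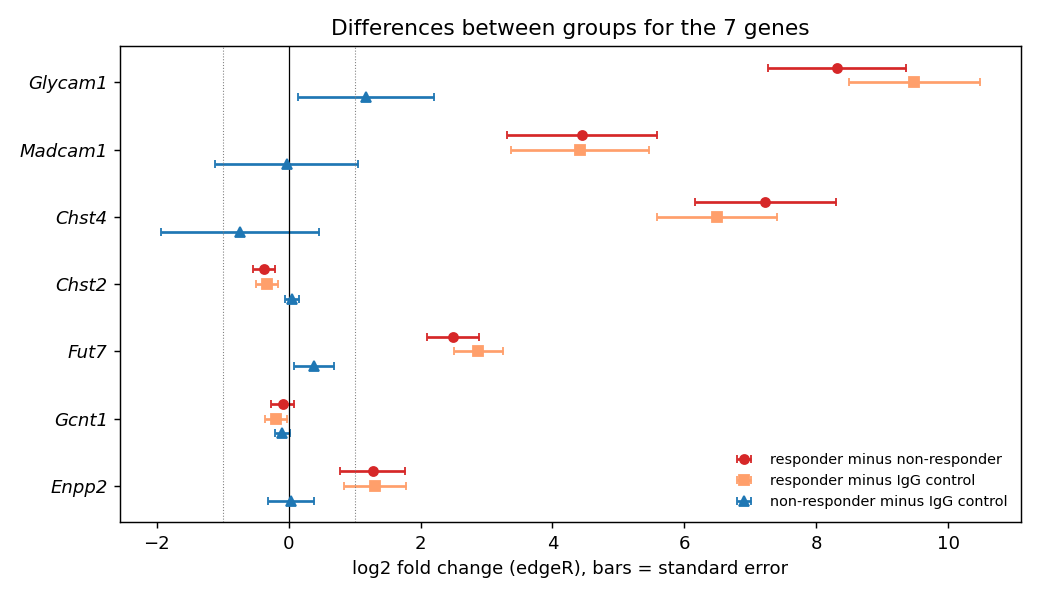
Log2 fold change of each gene from edgeR for responders minus non-responders, responders minus IgG controls and non-responders minus IgG controls, with bars for the standard error and dotted lines at -1 and 1. Glycam1 (8.32 and 9.49) and Chst4 (7.23 and 6.49) lie farthest from 0 in the comparisons with responders, and Gcnt1 (-0.09 and -0.19) lies near 0.

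Per length, the order of the levels changed between groups. CPM per kilobase of the longest coding transcript in responders averaged 167 for Glycam1 (287 and 47.7 in the tumors), 43.0 for Enpp2 (33.9 and 52.1) and 16.7 for Gcnt1 (18.0 and 15.4). Chst2 followed at 4.18, Fut7 at 1.45, Chst4 at 0.912 and Madcam1 at 0.807. Glycam1 and Enpp2 do not differ beyond their spread, since replicate 16 had less Glycam1 than Enpp2 per kilobase, and the values of Fut7, Chst4 and Madcam1 overlap as well. In IgG controls the order was led by Gcnt1 at 19.1 ± 3.24 (SD, n = 8) and Enpp2 at 17.3 ± 8.55 CPM per kilobase, which overlap, and then Chst2 at 5.24 ± 0.60. Glycam1 averaged 0.225 ± 0.555 CPM per kilobase there, beside Fut7 at 0.197 ± 0.088, and Madcam1 and Chst4 were lower still.

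The responders differed from each other by gene. Replicate 15 held 6.01 times the Glycam1 level of replicate 16 (95% exact interval 5.63 to 6.42), 5.87 times the Madcam1 level (3.15 to 11.9) and 3.22 times the Chst4 level (2.15 to 4.92). The ratios of Fut7, Gcnt1 and Chst2 were 1.16, 1.17 and 1.11, and Enpp2 was lower in replicate 15 at 0.649. These intervals cover counting error only and compare 1 library with 1 other. Over the same pair the median ratio was 6.04 for 6 adipocyte genes, 3.68 for 8 B cell genes, 1.997 for 10 pan-endothelial genes, 1.14 for 6 naive T cell genes and 0.216 for 5 neutrophil genes.

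Each gene was also set against the level of endothelial RNA. The mean log2 CPM of 10 pan-endothelial genes was higher by 1.27 in responders than in non-responders (two-sided p = 0.0714 by exact permutation, the lowest value that 2 against 6 tumors allow) and by 1.296 than in controls (exact p = 0.0889). Neither passed 0.05, and responder replicate 16, at 3.97, lay below control replicate 2, at 4.14, and next to non-responder replicate 11, at 3.96. Glycam1 over this level was higher in responders by 6.82 on the log2 scale against non-responders (exact p = 0.0714) and by 8.24 against controls (exact p = 0.0444, the smallest possible with 2 against 8). Chst4 over this level was higher by 3.46 and 3.38, with no overlap between groups in either comparison. Chst2 over this level was lower by 1.63 and 1.61, again with no overlap. Gcnt1 was lower by 1.36 against non-responders without overlap and by 1.47 against controls with overlap (exact p = 0.0889). Before this subtraction Chst2 and Gcnt1 differed from non-responders by -0.38 and -0.09, and neither was called. Their lower values on this scale thus mostly restate the higher endothelial level of the responders. The share of all genes that separate on this scale was not computed. Madcam1, Fut7 and Enpp2 overlapped between groups in both comparisons on this scale, with differences of 1.95, 1.13 and 0.12 against non-responders. After Benjamini-Hochberg adjustment over the 14 tests the lowest p was 0.143. With 2 responders the smallest exact p was 0.0714 against non-responders and 0.0444 against controls. Even with every test at its smallest value, no adjusted p under 0.05 could be reached, so these tests decide nothing. Of the 14 other tumors, 7 had 0 counts of Madcam1, 6 had 0 of Glycam1 and 12 had 0 of Chst4. Their values on this scale come from the count added before taking logs and from the endothelial level. The difference for Chst4 depends on that count, at 5.20 against non-responders with 0.5 in place of 2.

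**Figure D3:**
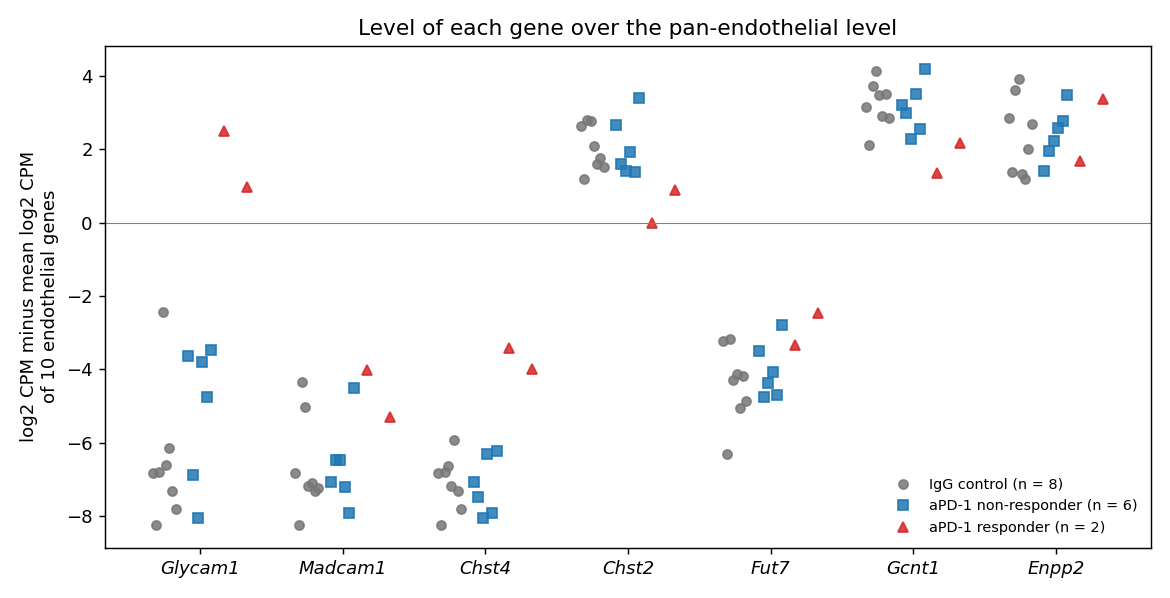
Log2 CPM of each gene minus the mean log2 CPM of 10 endothelial genes, with 1 point per tumor. The responders lie above the other tumors for Glycam1 (2.49 and 0.96) and Chst4, at or below their lower end for Chst2 and Gcnt1, and inside their range for Enpp2.

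The partners of the 7 genes on the vessel side were mixed. Of 6 other selectin ligand scaffolds, 3 were called higher in responders than in non-responders, with a median log2 fold change of 1.24 against 0.02 over all genes tested. These were Parm1, a mucin-like membrane protein, at 3.32, Cd300lg, a sulfated mucin-like receptor of endothelium, at 2.11, and Selplg, the P-selectin ligand of leukocytes, at 1.26. Cd300lg measured 21.0 and 3.94 CPM in the responders, the lower of which was inside the range of the non-responders, up to 4.03 CPM. Without replicate 15, Cd300lg lay at 0.38 (adjusted p = 0.789) and Parm1 at 2.22 (adjusted p = 0.278, edgeR), and Selplg was called. Cd34, a scaffold on endothelium and on other cells, was the most abundant and lay at -0.62 (adjusted p = 0.108, edgeR). Of 11 other enzymes that build, carry or sulfate these sugars, 1 was called higher, Fut4 at 1.20 (0.995 without replicate 15, adjusted p = 0.119), and the median was 0.20. B4galt1, the most abundant of them, measured 100 and 120 CPM in the responders and 88.5 to 112 CPM in the non-responders. Of 6 adhesion molecules of activated venules, 3 were called higher, namely Ackr1, a chemokine-binding receptor of venules, at 3.64, Icam1 at 1.71 and Icam2 at 1.50, and Icam1 alone was called without replicate 15. Vcam1 lay at 0.19 (adjusted p = 0.708). P-selectin (Selp) and E-selectin (Sele) reached 3.01 and 2.67 without passing the test (adjusted p = 0.057 and 0.0698), and both were called against controls.

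On the lymphocyte side, 8 of 9 homing receptors were called higher in responders than in non-responders, with a median log2 fold change of 2.03. Cxcr5, which guides cells to follicles, led the list at 7.09, and Itgb2, shared by many leukocytes, was the gene that was not called, at 0.53 (adjusted p = 0.103, edgeR). All 4 lymphoid chemokines were called higher, from Cxcl12 at 3.43 to Ccl19 at 7.27, with a median of 6.12. Without replicate 15 the medians of these lists were 1.61 and 5.13, and not every call in either list held. Ccl21a, which HEVs and node stroma make, measured 64.2 to 157 CPM in the responders and at most 3.11 CPM elsewhere. Of 8 genes of the lymphotoxin axis, the 3 called higher were ligands: Ltb at 4.69, Lta at 3.73 and Tnfsf14 at 1.21. Its receptor Ltbr lay at -0.47 (adjusted p = 0.14) and Relb, an NF-kappaB subunit that acts downstream, at 0.17 (adjusted p = 0.716). Of 5 tested receptors for the product of Enpp2, Lpar5 was called higher at 2.18, though not when replicate 15 or replicate 16 was left out (adjusted p = 0.346 and 0.0581), and Lpar1, the most abundant, lay at 0.25 (adjusted p = 0.428).

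Genes of other cell types were also called higher in the responders, where 4 of the 7 genes were called, and their part in that result was not tested. All 8 B cell genes were called higher in responders than in non-responders, with a median log2 fold change of 7.12, and their summed level was 1190 and 327 CPM in the responders against 2.86 to 6.96 CPM in the non-responders and 1.83 to 7.71 CPM in the controls. All 6 adipocyte genes were called higher with a median of 5.59, and their sum was 724 and 120 CPM against 1.34 to 22.5 and 0.449 to 33.3 CPM. Of 8 lymph node stroma genes 6 were called higher (median 1.92, sum 455 and 301 CPM against 112 to 188 CPM in the other groups), led by Cr2, a complement receptor of follicular dendritic cells and B cells, at 7.98. Cr2 and Fcer2a, which B cells express too, made up 162 and 132 CPM of the sum in replicate 15. In replicate 16 they measured 29.7 and 29.2 CPM. This list is therefore not separate from the B cell genes. The other genes called were Bst1, Il7, Tnfsf11 and Coch. Coch measured 4.375 CPM in replicate 15 but 0.281 CPM in replicate 16, below control replicate 5 at 0.430 CPM. Of 5 lymphatic endothelial genes 3 were called higher (median 3.67), of 6 naive T cell genes 5 (median 1.93), of 10 pan-endothelial genes 3 (median 1.05) and of 5 neutrophil genes 2 (median 2.15). Without responder replicate 15, a choice of test made after seeing the data, the median was 5.84 for B cell and 1.87 for naive T cell genes (edgeR). It was 1.66 for lymph node stroma, 2.71 for lymphatic, 3.78 for adipocyte, 0.41 for pan-endothelial and 2.85 for neutrophil genes. The calls of these latter lists depended on replicate 15, wholly for the adipocyte and pan-endothelial genes and in part for the others. The fit without it holds a single responder, and the share of all genes called there is not given. Calls are therefore not compared between lists. Glycam1, Chst4 and Fut7 lay at 6.45, 6.09 and 2.31 in the same fit. None of 5 keratinocyte genes and none of 6 skeletal muscle genes were called, with medians of -0.88 and -1.69.

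Since Glycam1 is also a milk gene, 8 mammary genes were read beside it. The keratins Krt8 and Krt18 and the casein gene Csn3 were called higher in responders, at 5.99 for Krt8 and 2.97 for Csn3, while the other 5 had too few counts to be tested. Krt18 was not called without replicate 15 (adjusted p = 0.0742, edgeR). Among these, the milk genes Wap and Csn1s1 were at 0 in both responders while Csn2 had 7 and 3 counts in the responders and 0 in the other 14 tumors. Its highest level, 0.207 CPM in replicate 15, stood beside 184 CPM of Glycam1 in that tumor.

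**Figure D4:**
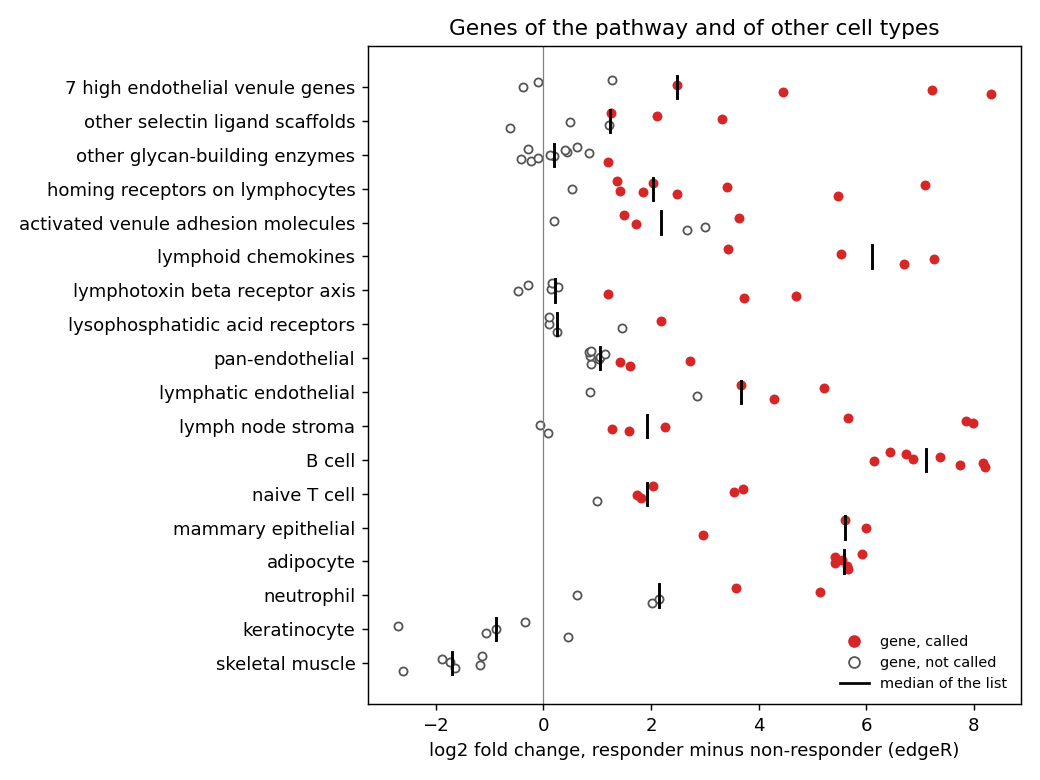
Log2 fold change from responders minus non-responders by edgeR for each tested gene of 18 lists, filled where called, with a bar at the median of the list. The B cell list (median 7.12), the lymphoid chemokines (6.12), the 3 tested mammary genes (5.61) and the adipocyte list (5.59) lie farthest to the right, and the 7 HEV genes spread from -0.38 to 8.32.

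Among the 14 tumors outside the responders, Glycam1 was low but not evenly spread. The highest value was 1.02 CPM in control replicate 4, from 34 counts, and the next were 0.580, 0.557, 0.463 and 0.339 CPM in non-responder replicates 9, 12, 13 and 14. These same 5 tumors had the highest summed B cell level, between 5.42 and 7.71 CPM. Over the 14 tumors the log2 CPM of Glycam1 and the mean log2 CPM of the B cell list had a Pearson r of 0.90 (permutation p = 7e-05, adjusted 4.2e-04 over 6 relations) and a Spearman rho of 0.84 (permutation p = 3.9e-04, adjusted 0.0023). Without the tumors farthest from the median B cell level, control replicates 4 and 7, r was 0.90. Within the 8 controls r was 0.84 (exact p = 0.0268) and rho 0.55 (exact p = 0.167), and within the 6 non-responders r was 0.95 (exact p = 0.0264) and rho 0.89 (exact p = 0.0333). Of the other 5 lists, lymph node stroma had r = 0.70 (adjusted permutation p = 0.0167) and rho = 0.63 (adjusted 0.0543), and r lay between -0.38 and 0.16 for naive T cell, pan-endothelial, lymphatic and adipocyte genes. The lymph node stroma list holds Cr2 and Fcer2a, which B cells express too, and its relation to Glycam1 was not tested without them.

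The size of these low values was read as a percentage of the level in responder replicate 15. Glycam1 in control replicate 4 was 0.555% of that level, and the median over 5 B cell and follicle genes (Ms4a1, Cd79a, Blk, Cr2 and Fcer2a) in the same tumor was 0.46%. In non-responder replicate 12 these were 0.303% and 0.299%, in replicate 9 0.316% and 0.406%, and in replicate 13 0.252% and 0.369%. Glycam1 lay within the range of the 5 genes in control replicate 4 and non-responder replicates 12 and 13, and below it in replicate 9, where they ranged from 0.357% to 0.721%. In replicate 14 the values were 0.184% and 0.384%, with a range from 0.158% to 0.486%. Ccl21a, Ccl19, Cxcl13, Cxcr5 and Fcrla were read the same way but were not in that median. In control replicate 4 they stood at 0.381%, 0.505%, 0.637%, 0.695% and 0.428%. In non-responder replicate 12 they stood at 1.98%, 1.11%, 1.13%, 0.391% and 1.01%, all above Glycam1. Cxcl13 reached 3.82% in non-responder replicate 13. Whether these low counts come from the tumors themselves or from reads assigned to the wrong library was not tested, and the correlation above rests on the same counts. The adipocyte gene Adipoq stood at 0.684%, 0.792%, 0.227% and 2.52% in control replicate 4 and non-responder replicates 12, 9 and 13 and 4.86% in control replicate 7, where Glycam1 was at 0.

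**Figure D5:**
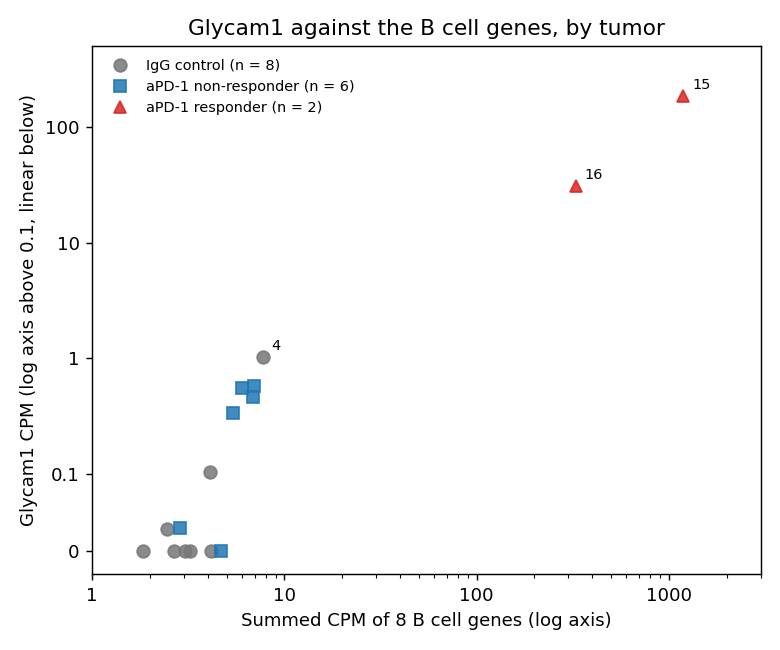
Glycam1 in CPM, on an axis that is logarithmic above 0.1 and linear below, against the summed CPM of 8 B cell genes on a log axis, with 1 point per tumor and replicate numbers beside tumors with more than 1 CPM of Glycam1. The responders lie at the upper right (replicate 15 at 1190 CPM of B cell genes and 184 of Glycam1) and control replicate 4 is the highest of the other tumors on both axes.

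The genes whose log2 CPM was most like that of Glycam1 over the same 14 tumors, by Spearman's rho, were Igkv6-20 (0.90), Ccl21a (0.90), Ighe (0.86), Gm29367 (0.85) and Ighg2b (0.85), of which Igkv6-20, Ighe and Ighg2b are immunoglobulin genes. For Madcam1 they were Tbl2 (0.86), Cers1 (0.84), Uaca (0.83), Hlf (0.82) and Pdia5 (0.81). For Chst4, with 12 of 14 tumors at 0, Gm8221 and Igkv14-130 reached a rho of 1 by sharing those zeros, and Igkv9-120, Igkv6-17 and Aqp4 followed at 0.80. The rankings of Madcam1 and Chst4 rest on 7 and 2 tumors with counts above 0.

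No difference between non-responders and controls in the 7 genes passed the test. Between the 6 non-responders and 8 controls 0 of 7 genes were called, against 0% of all genes tested by edgeR, with 694 of 18251 genes (3.8%) and 0 of the 7 at an unadjusted p under 0.05, and DESeq2 called 4 genes, none of them among the 7. The log2 fold change was 1.17 ± 1.03 for Glycam1 (adjusted p = 0.987), 0.38 ± 0.30 for Fut7 and 0.04 ± 0.35 for Enpp2. The remaining values were -0.73 ± 1.20 for Chst4, -0.03 ± 1.09 for Madcam1, 0.05 ± 0.11 for Chst2 and -0.10 ± 0.12 for Gcnt1. For the low genes these errors span several fold in either direction, whereas for Chst2 and Gcnt1 they are narrow.

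The randomized comparison, all 8 aPD-1 tumors against the 8 controls, gave 0 calls among the 7 genes and 0% among all genes by edgeR, with 2463 genes (13.5%) and 4 of the 7 at an unadjusted p under 0.05. Glycam1 differed by 7.50 ± 1.92 (adjusted p = 0.152), Chst4 by 4.53 ± 1.53 (adjusted p = 0.212), Madcam1 by 2.59 ± 1.20 (adjusted p = 0.357) and Fut7 by 1.49 ± 0.51 (adjusted p = 0.212). DESeq2 called 91 genes, Glycam1 among them at 6.55 (adjusted p = 0.0182) and none of the other 6. All 4 differences contain the 2 responders, and without them the non-responder values above apply.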

How the data were processed

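RNA-seq libraries from 16 MC38 tumors were analysed. Per the labels, strand-specific libraries were made from poly(A) RNA. The authors aligned reads with STAR 2.6 to GRCm38 and deposited expected counts per gene from RSEM 1.3.0, with no normalization. RSEM divides reads that match several genes, and 7.83% of values were not whole. Expected counts were rounded. Of 53557 rows, 92 spike-in entries were left out. Symbols and coordinates were from GENCODE mouse release 21 and promoters from RefSeq on GRCm38.p6. Levels are CPM with TMM scaling. Depth was 26603449 to 39948866 counts per tumor. In control replicate 3 a single gene, CT010467.1, held 20.4% of the counts, against at most 2.19% for the top gene of any other tumor. The TMM factor of that library was 0.784. No tumor was a copy of another: over 120 pairs, chi-square per degree of freedom was at least 16.5.

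All 16 tumors were fitted in 1 model of 3 groups with edgeR 4.0.16 in R 4.3.3 (filterByExpr, TMM, robust quasi-likelihood test), with Benjamini-Hochberg adjustment over 18251 genes. All aPD-1 against IgG used a model of 2 groups. A single responder left in a fit was assumed to vary like the other groups. Log2 CPM used a prior count of 2. Single values were compared by exact permutation tests in scipy 1.17.1, two-sided, and correlations by permutation. Intervals of count ratios are exact and conditional, at 95%. The steps were run on simulated counts with far fewer changed genes than were called here, and that run is not used as support. Alternatives were DESeq2 1.42.0, other size factors and filters, a prior count of 0.5, 2-group fits, and leaving out tumors. The lists without 1 responder were added after seeing the data.

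The 7 genes and the gene lists were chosen with earlier results of these data known. The rule named the 7 genes, from each list the genes with the highest and lowest log2 fold change and the most abundant, and the 5 genes most like Glycam1, Madcam1 and Chst4. Other genes named, among them further called genes of short lists and the 5 genes whose median percentage is given, were chosen after their values were seen. Spatial data of the study were not analysed here. Results for some single genes that the rule covers are not reported here.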

Additional observations from a re-analysis of the deposited data

Results flagged for a closer look

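A tumor stood apart from the rest of its group in 4 of 14 groups examined. The rate of about 1 in 20 by chance does not hold for groups mostly at 0, as for Chst4, so no excess is read from it. Glycam1 was 1.02 CPM in IgG control replicate 4, with the next control at 0.104 CPM. Madcam1 was 0.262 CPM in control replicate 3, from 7 counts, with the next control at 0.120 CPM. Chst4 was 0.130 CPM in control replicate 6, from 5 counts, and 0.0506 CPM in non-responder replicate 12, from 2 counts, with every other tumor of those groups at 0. The fold changes of these genes without each of these tumors are among the leave-one-out values of the next section.

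The spike-in entries of the table, which no comparison used, held up to 185 counts in a tumor. That tumor was control replicate 4, followed by responder replicate 15 with 163 counts, and 4 tumors had more than 3.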

How the results depend on the processing

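No paired analysis was possible because the replicate numbers in the labels run from 1 to 16 over the tumors and no number is shared between groups. With at least 10 counts required in at least 8 tumors, Glycam1, Madcam1 and Chst4 were removed before testing, being low outside the responders. Of the genes left, Fut7 alone was called higher in responders, in each comparison. The share of all genes called is not given for this filter or for the fits that leave out a tumor. Calls in them are therefore no result about the 7 genes as a set. DESeq2 called 1 gene, Glycam1, in all aPD-1 against IgG. Leaving out each tumor in turn gave 3 to 5 called genes in both comparisons with responders, 3 without responder replicate 15, and 0 in the other comparisons. Over the pan-endothelial level, 7 of 14 pairs of a gene and a comparison, from 4 genes and in both directions, did not overlap, with 7 to 10 when a tumor was left out. The share of all genes that do not overlap on this scale was not computed, so these counts are no result about the 7 genes. The Glycam1 log2 fold change against non-responders ranged from 6.45 without replicate 15 to 9.04 without replicate 16, and against controls from 7.60 to 12.08. Signs turned only in comparisons without a call. Between non-responders and controls, leaving out a tumor moved Madcam1 between -0.53 and 0.90, Chst4 between -2.56 and 1.83 (at either end 1 group was wholly at 0, so that these values depend on the prior count), Chst2 between -0.025 and 0.11 and Enpp2 between -0.20 and 0.21, and without the 3 tumors of highest mitochondrial share (control 1, non-responders 9 and 14) Chst2 was -0.087. In all aPD-1 against controls, Chst2 lay between -0.10 and 0.01 when 1 tumor was left out. These causes were not tested. With 2 responders, 1 tumor decides much of each estimate.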
